A study of Mus musculus with 22 samples.

Results

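A set of 33 genes covers how a kidney cell makes, takes up, moves, and exports cholesterol. It was chosen by name, with earlier results of these data known. Each of the 33 symbols was found once among the 32858 genes of the count table. The genes were sorted by role: 8 of the mevalonate part of synthesis, 11 from squalene to cholesterol, 4 that regulate synthesis, 4 of transport and storage, and 6 of efflux and its regulation by the liver X receptors (LXR). RNA-Seq was performed on whole kidneys of male C57Bl6/J mice aged 8 to 10 weeks, with 1 library from each of 22 mice. The vehicle group (n = 5) received the carrier. The KW6002 group (n = 6) received istradefylline, an adenosine receptor antagonist also known as KW6002, at 3 mg/kg each day, beginning on day -5 and ending on day 7. The cisplatin group (n = 5) received 6 daily injections of cisplatin, a platinum drug that damages renal tubules, at 3 mg/kg each. The co-treated group (n = 6) received both drugs at these doses, and kidneys were taken 72 hours after the last cisplatin injection. The labels name no genetic change in these mice.

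Cholesterol is built from acetyl-CoA through mevalonate, isoprenoids, squalene, and lanosterol. Most enzymes of this route are transcribed under sterol regulatory element-binding protein 2 (SREBP2, gene Srebf2). When membranes hold little cholesterol, SCAP carries SREBP2 to the Golgi, where it is cleaved to its active form, and when cholesterol is ample, INSIG proteins keep SCAP in the endoplasmic reticulum. Excess cholesterol is oxidized to oxysterols, which activate LXR. Activated LXR induces the exporters ABCA1 and ABCG1, apolipoprotein E as an acceptor, SREBP1c, and the ubiquitin ligase MYLIP, which limits lipoprotein uptake. Synthesis genes and LXR targets are therefore often read as opposite arms of one control circuit. Renal proximal tubule cells, rich in membrane and in lipoprotein-binding receptors, take up, make, and export cholesterol.

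Libraries held 26471762 to 40510754 counts, and the 33 genes passed the filter on low counts, as did 17131 genes in all. Levels are given as counts per 1000000 counts (CPM) after TMM scaling. Log2 fold changes, standard errors (SE), and p-values came from edgeR's quasi-likelihood test with Benjamini-Hochberg adjustment over the 17131 genes, and a gene was called at an adjusted p below 0.05. The mice were labelled with numbers in the 300s (3 vehicle, 3 KW6002) or in the 500s (the other 16), so cisplatin was given only to mice of the 500s. Summed CPM of 8 proximal tubule markers was 19638 to 21326 in vehicle mice, 3353 to 5497 in cisplatin mice, and 8706 to 12677 in co-treated mice. In bulk RNA, fewer cells of a type and less RNA per cell cannot be told apart. Fat markers summed to 137 to 1045 CPM in vehicle mice, 340.2 to 640.2 in cisplatin mice, and 38.4 to 230 in co-treated mice. Single fat markers differed in these 3 groups, with Cidec at means of 49.3, 104.6, and 15.0 CPM and Retn at 21.6, 6.89, and 7.46 CPM. Adrenal cortex markers stood at 65.3 CPM in co-treated replicate 6 against at most 3.46 in the other 21 libraries. The counts of called members were the same within 1.5-fold without any single library.

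Most of the synthesis genes were lower in cisplatin kidneys and were higher in co-treated than in cisplatin kidneys. The genes of transport and of LXR and efflux shared no common direction. Among them, Stard4 and Nr1h3 moved as most synthesis genes did. In cisplatin kidneys, compared with vehicle kidneys, 18 of the 33 genes were lower and 8 were higher, against 35.9% of all tested genes lower and 34.6% higher. Between co-treated and cisplatin kidneys, 23 genes were higher and 3 were lower, against 28.6% higher and 27.2% lower among all tested genes. Counts within each role below are to be read against these shares. Since the set was chosen with earlier results known, an excess over these shares is not an independent test. The median log2 fold change of the 33 genes was -0.38 in the first comparison and 0.63 in the second, and that of all tested genes was -0.01 and 0.01. Both comparisons use the same cisplatin mice, so their values are set side by side and were not correlated.

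The KW6002 effect in cisplatin mice was also tested against the KW6002 effect in mice without cisplatin, as an interaction. It was called for 24 of the 33 genes, 21 with the higher effect under cisplatin and 3 with the lower one, against 22.8% and 19.9% of all tested genes. The plot of fold changes shows each gene in both comparisons, ordered by role.

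**Figure D1:**
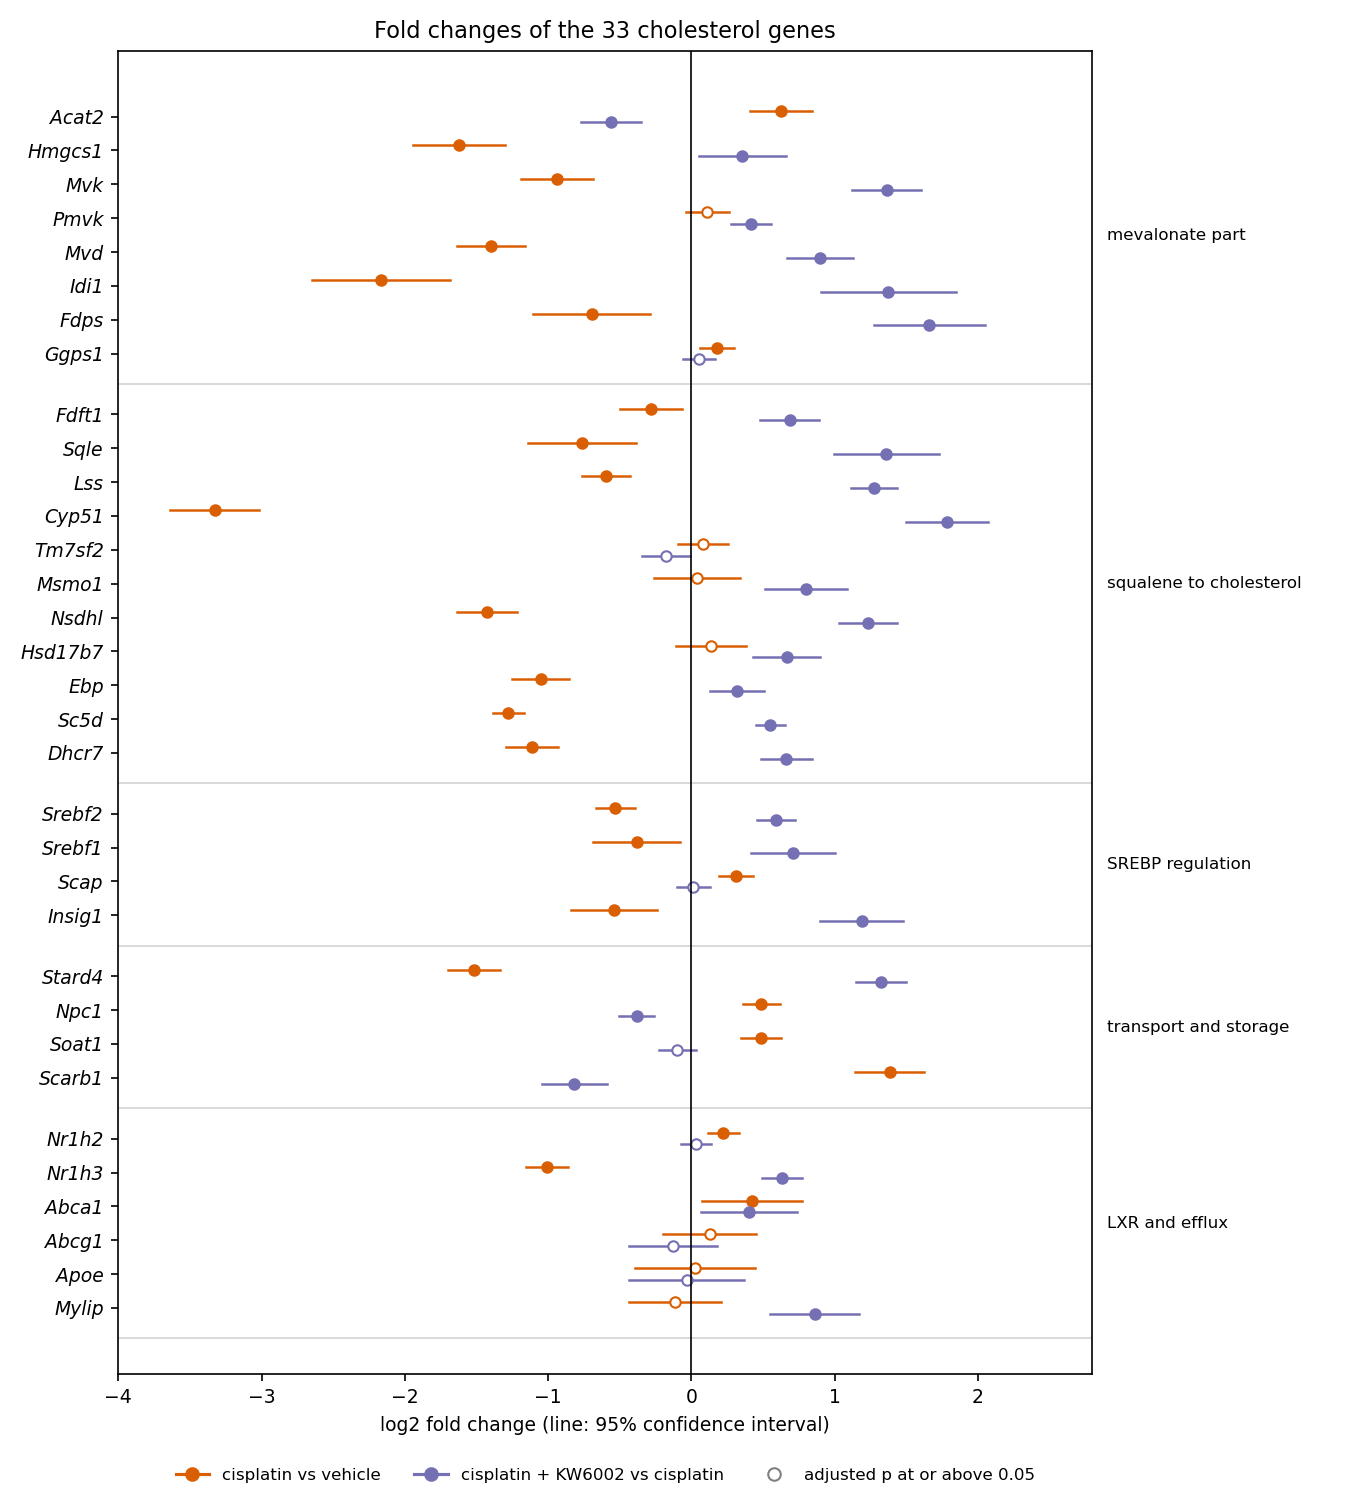
Log2 fold change of each of the 33 genes (x axis) for cisplatin versus vehicle (orange) and co-treated versus cisplatin (purple), with lines for 95% confidence intervals and open points for an adjusted p at or above 0.05. Cyp51 lies farthest to the left at -3.33, and Scarb1, Npc1, and Acat2 are the genes called higher with cisplatin and lower with co-treatment.

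Of the 8 genes of the mevalonate part, 5 were lower and 2 were higher in cisplatin kidneys, and the median log2 fold change was -0.82. Between co-treated and cisplatin kidneys, 6 were higher and 1 was lower, with a median of 0.66. Hmgcs1 (ENSMUSG00000093930, chromosome 13 from 119690379 to 119708260, mm10), which encodes the cytosolic synthase that makes HMG-CoA, was the most abundant of them per kilobase of exon, at 167 CPM per kb in vehicle kidneys. Its CPM in the 5 vehicle mice was 582, 778, 701, 876, and 909, and in the 5 cisplatin mice it was 197, 277, 233, 253, and 289. Co-treated mice had 264, 316, and 382 CPM (lowest, median, highest), and KW6002 mice had 550.3, 774, and 979. No cisplatin or co-treated mouse reached the lowest vehicle mouse, whereas the cisplatin and co-treated ranges overlapped. The fall with cisplatin was 3.08-fold (log2 fold change -1.62, SE 0.16, adjusted p = 3.29e-09). The rise with co-treatment was 1.28-fold (log2 fold change 0.36, SE 0.15, adjusted p = 0.0430), and its interaction was not called (adjusted p = 0.159). That rise lost its call without any one of 6 libraries, namely cisplatin replicates 1, 3, and 4 and co-treated replicates 1, 4, and 6, with an adjusted p of 0.0649 to 0.126. It was also lost with the fat markers as a covariate (log2 fold change 0.43, adjusted p = 0.0606) and with scaling by library size only (log2 fold change 0.30, adjusted p = 0.0763).

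Acat2 (ENSMUSG00000023832, chromosome 17 from 12942890 to 12960747), whose product condenses acetyl-CoA units at the entry of the route, moved the other way. It measured 69.9, 64.6, 69.2, 54.7, and 45.2 CPM in vehicle mice and 82.9, 109.8, 95.3, 97.1, and 83.8 CPM in cisplatin mice. The co-treated mice ranged from 57.5 to 68.7 CPM with a median of 64.0. Each cisplatin mouse was above each vehicle mouse and each co-treated mouse. The log2 fold change was 0.63 with cisplatin (SE 0.11, adjusted p = 1.41e-05) and -0.56 with co-treatment (SE 0.10, adjusted p = 5.61e-05), and the interaction was -0.72 (adjusted p = 0.000323).

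The kinases and the decarboxylase that turn mevalonate into isopentenyl diphosphate differed among themselves. Mvk, the mevalonate kinase gene, fell from 14.7 ± 0.65 (SD, n = 5) CPM with vehicle to 7.65 ± 0.76 (SD, n = 5) with cisplatin and stood at 19.7 ± 3.92 (SD, n = 6) with co-treatment. Mvd, which encodes the decarboxylase, went from 46.6 ± 3.64 to 17.7 ± 3.12 and 32.9 ± 4.58 CPM in the same groups. Both were called in both comparisons, with log2 fold changes of -0.94 and 1.36 for Mvk and of -1.40 and 0.90 for Mvd. Pmvk, the kinase gene between them, was not called with cisplatin (18.96 ± 1.42 and 20.5 ± 2.66 CPM, adjusted p = 0.173) and was higher with co-treatment (27.3 ± 0.71 CPM, log2 fold change 0.42, adjusted p = 2.15e-05). Without cisplatin replicate 1, the lowest of its group, the Pmvk difference between cisplatin and vehicle was called as well (log2 fold change 0.19, adjusted p = 0.00405).

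Idi1 and Fdps had the lowest counts of the 33 genes. Idi1 (ENSMUSG00000058258, chromosome 13 from 8885501 to 8892451), the isopentenyl diphosphate isomerase gene, measured 3.14, 3.45, 3.36, 2.85, and 3.74 CPM in vehicle mice and 0.745, 0.678, 0.746, 0.882, and 0.623 CPM in cisplatin mice. Co-treated mice ranged from 0.857 to 2.39 CPM with a median of 2.03, and only co-treated replicate 3 fell into the cisplatin range. The log2 fold change was -2.16 with cisplatin (SE 0.23, adjusted p = 2.00e-08) and 1.37 with co-treatment (SE 0.23, adjusted p = 2.27e-05). Fdps (ENSMUSG00000059743, chromosome 3 from 89093588 to 89101959), the farnesyl diphosphate synthase gene, measured 2.52, 2.81, 1.34, 2.01, and 2.15 CPM in vehicle mice, 1.25, 1.53, 1.33, 0.909, and 1.64 CPM in cisplatin mice, and 3.15, 4.21, and 5.19 CPM (lowest, median, highest) in co-treated mice. All co-treated mice were above all vehicle and cisplatin mice, while the vehicle and cisplatin ranges overlapped. The log2 fold change was -0.70 with cisplatin (SE 0.20, adjusted p = 0.00344) and 1.66 with co-treatment (SE 0.19, adjusted p = 1.27e-07). Exons of another gene, Gm43738, cover 26.7% of the Fdps exons on the same strand, and Fdps has near-identical copies elsewhere in the genome, so its counts, made from uniquely aligned reads, are uncertain. Ggps1, which encodes geranylgeranyl diphosphate synthase at the branch to protein prenylation, was 1.13-fold higher with cisplatin (34.9 ± 2.40 and 39.6 ± 1.87 CPM, adjusted p = 0.00678) and was not called with co-treatment (41.1 ± 2.92 CPM, adjusted p = 0.403). Among the mice of the 500s alone the Ggps1 difference with cisplatin was not called (adjusted p = 0.148).

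From squalene to cholesterol, 8 of 11 genes were lower and 0 were higher in cisplatin kidneys (median log2 fold change -0.77, edgeR, with 3 not called), and 10 were higher and 0 were lower with co-treatment (median 0.69). Cyp51 (ENSMUSG00000001467, chromosome 5 from 4081145 to 4104746), which encodes lanosterol demethylase, had the largest change of the 33 genes in both comparisons. In vehicle mice it measured 216, 187, 286, 319, and 286 CPM, and in cisplatin mice 23.2, 26.1, 26.8, 25.2, and 27.9 CPM. Co-treated mice had 64.3, 97.8, and 101.7 CPM (lowest, median, highest), and KW6002 mice had 257, 298, and 331. The co-treated mice lay between the vehicle and cisplatin ranges without overlap with either. Cisplatin lowered Cyp51 10.0-fold (log2 fold change -3.33, SE 0.15, adjusted p = 9.74e-15), and co-treated kidneys had 3.45-fold more than cisplatin kidneys (log2 fold change 1.78, SE 0.14, adjusted p = 5.21e-10). They were still 2.91-fold below vehicle (log2 fold change -1.54, SE 0.13, adjusted p = 1.39e-09).

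Nsdhl (ENSMUSG00000031349, chromosome X from 72918557 to 72958514), a sterol dehydrogenase gene that acts after Cyp51, measured 76.8, 76.4, 67.2, 79.6, and 75.7 CPM in vehicle mice and 24.4, 27.8, 26.8, 28.7, and 32.1 CPM in cisplatin mice. Co-treated mice had 48.9, 70.4, and 72.8 CPM (lowest, median, highest). The cisplatin mice were below all others, and the co-treated range overlapped the vehicle range. The log2 fold change was -1.43 with cisplatin (SE 0.10, adjusted p = 2.09e-11) and 1.24 with co-treatment (SE 0.10, adjusted p = 6.95e-10). Sqle (ENSMUSG00000022351, chromosome 15 from 59315077 to 59331192), the squalene epoxidase gene and a rate-controlling step of the route, measured 60.8, 65.8, 70.7, 111, and 110.1 CPM in vehicle mice, 40.8, 51.2, 47.4, 48.6, and 58.3 CPM in cisplatin mice, and 81.2, 132, and 155 CPM (lowest, median, highest) in co-treated mice. The 3 lower vehicle values belong to mice of the 300s and the 2 higher ones to mice of the 500s. All cisplatin mice were below all vehicle and co-treated mice. Its log2 fold change was -0.77 with cisplatin (SE 0.18, adjusted p = 0.000723) and 1.36 with co-treatment (SE 0.18, adjusted p = 1.03e-06).

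Fdft1 and Lss, the squalene synthase and lanosterol synthase genes on either side of Sqle, were lower with cisplatin and higher with co-treatment. Lss went from 31.6 ± 1.13 (SD, n = 5) to 20.97 ± 0.52 (SD, n = 5) and 50.8 ± 7.83 (SD, n = 6) CPM, with log2 fold changes of -0.59 and 1.28. Fdft1 went from 18.4 ± 1.60 to 15.2 ± 1.11 and 24.4 ± 4.41 CPM, with log2 fold changes of -0.28 (adjusted p = 0.0203) and 0.69 (adjusted p = 4.42e-06). The smaller change of Fdft1 with cisplatin lost its call without vehicle replicate 2 (adjusted p = 0.0596), without cisplatin replicate 1 (adjusted p = 0.0576), and with scaling by library size only (adjusted p = 0.579). Among the mice of the 500s alone it was not called either (log2 fold change -0.29, adjusted p = 0.0911). Exons of Ctsb cover 18.3% of the Fdft1 exons on the other strand, and whether strand was used in counting is not stated.

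The enzymes that finish the sterol ring and side chain fell into several patterns. Ebp, Sc5d, and Dhcr7, which encode the last isomerase, desaturase, and reductase steps, were lower with cisplatin by log2 fold changes of -1.05, -1.28, and -1.11 and higher with co-treatment by 0.32, 0.55, and 0.66. Sc5d had the smallest adjusted p of the 33 genes with cisplatin, 2.59e-15, at 68.3 ± 2.34 CPM in vehicle kidneys and 28.2 ± 1.32 CPM in cisplatin kidneys. Msmo1 and Hsd17b7, which take part in removal of the methyl groups at carbon 4, were not called with cisplatin (adjusted p = 0.806 and 0.300) and were higher with co-treatment, at 55.2 ± 12.6 and 56.1 ± 9.51 CPM against 31.7 ± 2.47 and 35.4 ± 2.02 CPM. Tm7sf2, a sterol reductase gene, was not called in either comparison, at 17.6 ± 1.16, 18.6 ± 2.12, and 16.4 ± 1.92 CPM with vehicle, cisplatin, and co-treatment. Its adjusted p with co-treatment was 0.0657 and passed the threshold, with a lower level, without cisplatin replicate 1 or 5 or co-treated replicate 1 or 6 (adjusted p 0.0198 to 0.0389). Exons of Vps51 cover 12.1% of the Tm7sf2 exons on the same strand.

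**Figure D2:**
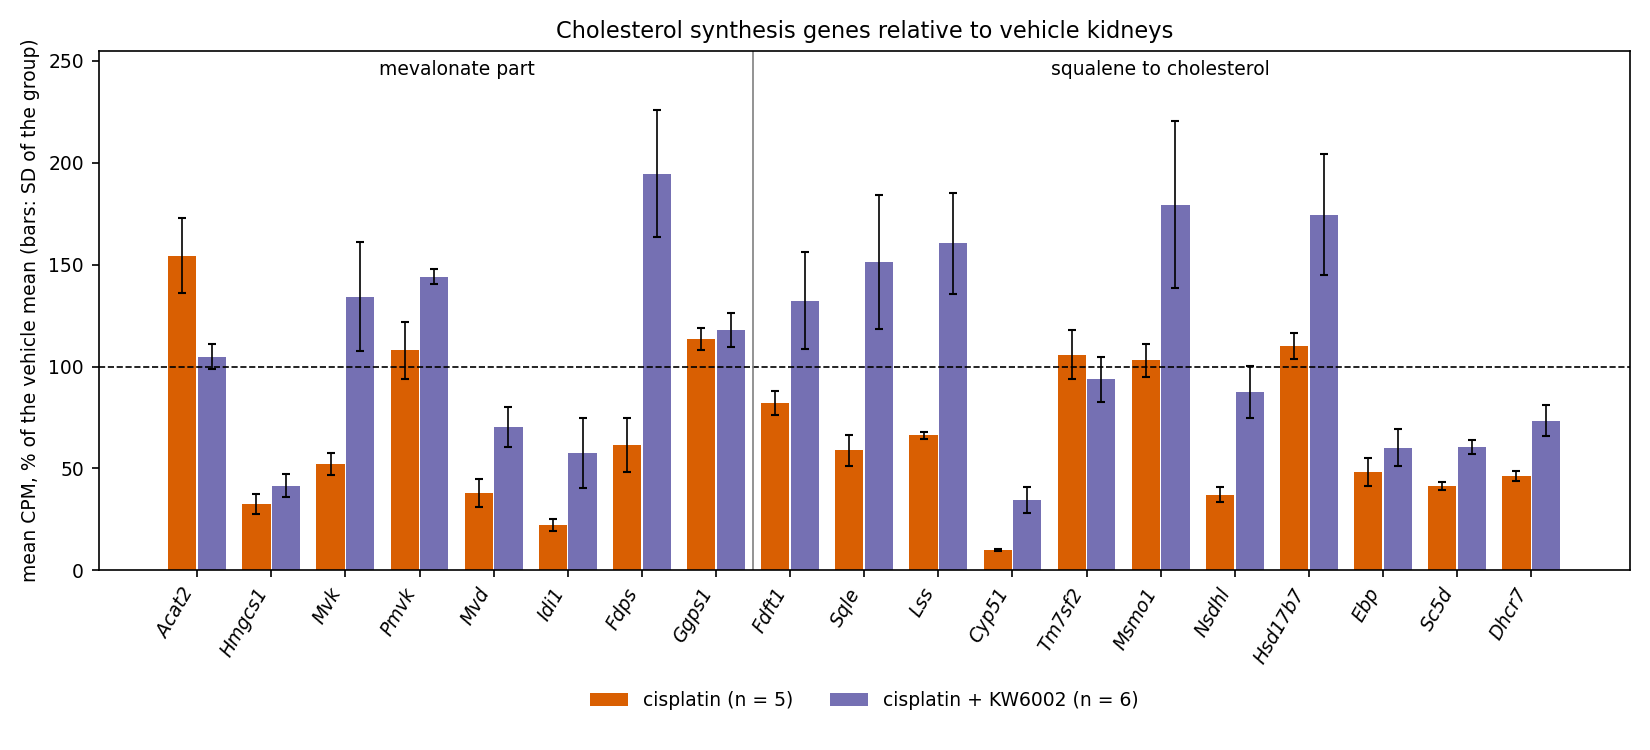
Mean CPM of the 19 synthesis genes in pathway order (x axis) as a percent of the vehicle mean (y axis, dashed line at 100%), with bars for cisplatin (n = 5) and co-treated (n = 6) kidneys and SD of each group. Cyp51 stood at 9.98% of vehicle with cisplatin and 34.4% with co-treatment. With co-treatment Fdps, Lss, Sqle, Msmo1, and Hsd17b7 were farthest above the vehicle mean, among others that also exceeded it.

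Promoter sequences of the genes are given as a description. RefSeq windows on GRCm38.p6, running from 250 bases before to 50 bases after the start, were given for 26 of the 33 genes. They were searched on both strands for the sterol response element, written as TCACNCCAC, and for the NF-Y box, CCAAT, which is known to assist SREBP. The LXR direct repeat DR4 was searched in 1 spelling, a half-site RGKTCA (R is A or G, K is G or T) repeated after 4 bases. The NF-Y box was found for 15 of the 16 synthesis genes with a window (93.8%), for 3 of 4 genes of SREBP regulation, and for 1 of 5 genes of the LXR and efflux group, Mylip. The 15 include genes that were not lower with cisplatin, namely Pmvk, Ggps1, Tm7sf2, Msmo1, and Hsd17b7. Among the 12305 tested genes with a window it was found for 42.0%, and in 37.4% of all 32851 windows. The sterol response element in this spelling was found for 1 of the 26 genes, Hmgcs1, and in 1.24% of all windows. DR4 in this spelling was found for 0 of the 26 genes and in 0.0822% of all windows. A match is a description of letters and does not show that a factor binds there, and genes with no match may hold these sites in other spellings or outside the window.

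The windows of 4 genes that fell with cisplatin, picked by hand, are printed 5′ to 3′ on the strand of the gene. Matches are in capitals (CCAAT or its reverse ATTGG, and TCACCCCAC in Hmgcs1). Hmgcs1 (chr13:119690101-119690400, plus strand) holds 1 sterol response element and 4 NF-Y boxes, Nsdhl (chrX:72918271-72918570, plus strand) holds 4 NF-Y boxes, and Cyp51 (chr5:4104648-4104947, minus strand) and Insig1 (chr5:28071162-28071461, plus strand) hold 1 each.
Hmgcs1: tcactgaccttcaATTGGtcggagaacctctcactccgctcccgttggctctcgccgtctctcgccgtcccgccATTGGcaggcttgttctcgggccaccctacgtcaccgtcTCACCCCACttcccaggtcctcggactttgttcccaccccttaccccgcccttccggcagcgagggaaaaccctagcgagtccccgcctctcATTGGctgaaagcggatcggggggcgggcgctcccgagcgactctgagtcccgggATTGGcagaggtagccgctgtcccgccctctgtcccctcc
Nsdhl: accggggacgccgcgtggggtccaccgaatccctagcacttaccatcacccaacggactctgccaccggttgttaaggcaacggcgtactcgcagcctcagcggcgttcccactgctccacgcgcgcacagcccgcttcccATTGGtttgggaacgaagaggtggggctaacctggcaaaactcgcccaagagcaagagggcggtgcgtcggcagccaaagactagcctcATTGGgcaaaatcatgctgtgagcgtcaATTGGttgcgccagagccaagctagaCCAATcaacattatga
Cyp51: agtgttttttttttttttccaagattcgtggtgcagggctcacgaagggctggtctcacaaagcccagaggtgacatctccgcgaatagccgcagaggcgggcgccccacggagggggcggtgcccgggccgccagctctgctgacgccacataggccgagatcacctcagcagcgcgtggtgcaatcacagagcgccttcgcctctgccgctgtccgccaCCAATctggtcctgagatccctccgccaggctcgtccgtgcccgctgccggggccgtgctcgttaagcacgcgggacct
Insig1: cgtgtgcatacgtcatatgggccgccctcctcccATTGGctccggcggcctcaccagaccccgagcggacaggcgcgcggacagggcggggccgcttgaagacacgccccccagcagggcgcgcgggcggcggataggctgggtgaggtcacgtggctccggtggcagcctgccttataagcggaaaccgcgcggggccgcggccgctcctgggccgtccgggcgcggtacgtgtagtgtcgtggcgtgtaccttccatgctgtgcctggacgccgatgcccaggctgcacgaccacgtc

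Among the 4 genes that regulate synthesis, 3 were lower and 1 was higher in cisplatin kidneys, and 3 were higher with co-treatment. Srebf2 (ENSMUSG00000022463, chromosome 15 from 82147181 to 82205379), which encodes SREBP2, measured 121, 105, 114, 124, and 125 CPM in vehicle mice and 82.4, 86.7, 81.8, 82.1, and 75.1 CPM in cisplatin mice. Co-treated mice had 103, 124, and 137 CPM (lowest, median, highest). The cisplatin mice were below all vehicle and co-treated mice, whose ranges overlapped each other. The fitted log2 change was -0.53 with cisplatin (SE 0.07, adjusted p = 2.45e-07) and 0.59 with co-treatment (SE 0.06, adjusted p = 7.10e-08). Insig1 (ENSMUSG00000045294, chromosome 5 from 28071363 to 28078662), itself a target of SREBP and part of its feedback, measured 28.9, 29.5, 29.8, 36.9, and 30.6 CPM in vehicle mice, 15.8, 26.3, 19.97, 18.98, and 26.1 CPM in cisplatin mice, and 34.8, 48.6, and 59.4 CPM (lowest, median, highest) in co-treated mice. All cisplatin mice were below all vehicle and co-treated mice. In log2 terms the change was -0.54 with cisplatin (SE 0.15, adjusted p = 0.00227) and 1.19 with co-treatment (SE 0.14, adjusted p = 2.55e-07).

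Scap (ENSMUSG00000032485, chromosome 9 from 110333288 to 110384950), the escort of SREBP, was the exception. It measured 99.5, 95.6, 109.9, 108, and 115 CPM in vehicle mice and 141, 131, 130.4, 132, and 122 CPM in cisplatin mice, which were all higher (log2 fold change 0.31, SE 0.06, adjusted p = 4.56e-05). Co-treated mice had 123, 133, and 140.1 CPM (lowest, median, highest) and were not called against cisplatin mice (log2 fold change 0.02, adjusted p = 0.831). Srebf1 (ENSMUSG00000020538, chromosome 11 from 60199089 to 60222581), which encodes SREBP1 and is a target of both SREBP and LXR, measured 73.8, 80.9, 70.8, 51.0, and 55.9 CPM in vehicle mice and 54.6, 48.2, 54.9, 54.2, and 43.4 CPM in cisplatin mice. The 2 vehicle mice of the 500s, at 51.0 and 55.9 CPM, lay within or just above the cisplatin range, and the 3 of the 300s lay above it. The lower level with cisplatin (log2 fold change -0.38, SE 0.15, adjusted p = 0.0249) was not called among the mice of the 500s (log2 fold change -0.07, adjusted p = 0.653) or with the label series as a covariate (log2 fold change -0.09, adjusted p = 0.542). It also lost its call without vehicle replicate 1 or 2 or cisplatin replicate 2 or 5 (adjusted p 0.0511 to 0.0800). In co-treated mice Srebf1 had 67.3, 82.0, and 105 CPM (lowest, median, highest), above all cisplatin mice (log2 fold change 0.71, SE 0.14, adjusted p = 0.000189).

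The 4 genes of transport and storage did not move as a block, since 3 were higher and 1 was lower with cisplatin. Stard4 (ENSMUSG00000024378, chromosome 18), a SREBP target whose product carries cholesterol between membranes, measured 155, 129, 138, 132, and 134 CPM in vehicle mice and 40.3, 51.7, 48.4, 49.2, and 50.3 CPM in cisplatin mice. Co-treated mice had 92.0, 125, and 132 CPM (lowest, median, highest). The cisplatin mice were far below the other groups, and co-treated replicate 3 was the lowest of its group. On the log2 scale the fold change was -1.52 with cisplatin (SE 0.09, adjusted p = 7.05e-13) and 1.32 with co-treatment (SE 0.09, adjusted p = 3.39e-11).

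Scarb1 (ENSMUSG00000037936, chromosome 5 from 125277087 to 125341094), the scavenger receptor that exchanges cholesterol with high-density lipoprotein, showed the largest rise of the 33 genes with cisplatin. It measured 24.3, 23.3, 18.4, 18.975, and 17.5 CPM in vehicle mice, 60.4, 56.2, 55.9, 53.2, and 41.7 CPM in cisplatin mice, and 25.9, 29.1, and 36.5 CPM (lowest, median, highest) in co-treated mice. The 3 groups did not overlap. Its log2 fold change was 1.38 with cisplatin (SE 0.12, adjusted p = 4.30e-10) and -0.82 with co-treatment (SE 0.11, adjusted p = 1.40e-06). Soat1 (ENSMUSG00000026600, chromosome 1 from 156424525 to 156474331), which esterifies cholesterol for storage, measured 35.0, 32.985, 33.7, 32.0, and 29.3 CPM in vehicle mice and 47.8, 46.4, 42.4, 41.9, and 49.4 CPM in cisplatin mice, all higher (log2 fold change 0.49, SE 0.07, adjusted p = 1.03e-06). Co-treated mice had 39.9, 41.2, and 46.9 CPM (lowest, median, highest) and were not called against cisplatin mice (log2 fold change -0.10, adjusted p = 0.206). Npc1, which moves cholesterol out of lysosomes, was higher with cisplatin (32.985 ± 2.61 and 46.2 ± 2.33 CPM, log2 fold change 0.49) and lower with co-treatment (35.6 ± 2.21 CPM, log2 fold change -0.38).

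Genes of LXR and efflux showed no common direction. With cisplatin 2 were higher and 1 was lower, and with co-treatment 3 were higher and 0 were lower (edgeR, with 3 not called). Nr1h3 (ENSMUSG00000002108, chromosome 2 from 91184061 to 91202834), which encodes LXR alpha, measured 52.9, 50.3, 53.7, 54.4, and 53.8 CPM in vehicle mice, 24.1, 22.2, 27.0, 27.1, and 31.4 CPM in cisplatin mice, and 38.6, 40.9, and 42.9 CPM (lowest, median, highest) in co-treated mice. The 3 groups did not overlap. The fitted log2 change was -1.01 with cisplatin (SE 0.07, adjusted p = 1.32e-11) and 0.63 with co-treatment (SE 0.07, adjusted p = 5.68e-08). Nr1h2 (ENSMUSG00000060601, chromosome 7 from 44549616 to 44553951), which encodes LXR beta, measured 89.6, 91.3, 84.9, 81.1, and 89.2 CPM in vehicle mice and 104, 101, 105, 104, and 95.2 CPM in cisplatin mice, with no overlap (log2 fold change 0.22, SE 0.05, adjusted p = 0.000644). Co-treated mice had 94.4, 107, and 109 CPM (lowest, median, highest), not called against cisplatin mice (adjusted p = 0.584).

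Of the 4 LXR targets, Abca1 was the one called with cisplatin, and Abca1 and Mylip were called with co-treatment. Abca1 (ENSMUSG00000015243, chromosome 4 from 53030787 to 53159895), the exporter of cholesterol to apolipoprotein A-I, measured 73.3, 88.1, 66.4, 52.4, and 49.1 CPM in vehicle mice, 93.5, 67.1, 87.0, 86.0, and 108 CPM in cisplatin mice, and 90.3, 122, and 131 CPM (lowest, median, highest) in co-treated mice. Cisplatin mice overlapped both other groups. In log2 terms the change was 0.42 with cisplatin (SE 0.17, adjusted p = 0.0293) and 0.40 with co-treatment (SE 0.16, adjusted p = 0.0373), a rise in each step. Among the mice of the 500s the values were 0.79 (adjusted p = 0.000370) and 0.41 (adjusted p = 0.00472), and the interaction was not called (adjusted p = 0.191 in all mice). The call with cisplatin was lost without vehicle replicate 4 or 5 or cisplatin replicate 1 or 5 (adjusted p 0.0541 to 0.0904), and the call with co-treatment without cisplatin replicate 2, 3, or 4 or co-treated replicate 1, 3, 4, or 5 (adjusted p 0.0562 to 0.113).

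The RefSeq window of Abca1 (chr4:53159846-53160145, minus strand) held 0 matches to the 3 motifs in the spellings searched and is therefore in lower case throughout. Direct repeats with other half-sites were not searched, so the lower case does not show that the window lacks an LXR site.
Abca1: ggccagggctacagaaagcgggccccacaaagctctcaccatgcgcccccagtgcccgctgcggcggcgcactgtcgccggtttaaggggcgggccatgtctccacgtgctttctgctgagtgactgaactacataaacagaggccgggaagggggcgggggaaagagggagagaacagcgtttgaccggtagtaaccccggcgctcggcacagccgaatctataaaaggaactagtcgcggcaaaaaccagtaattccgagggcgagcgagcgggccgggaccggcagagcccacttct

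Mylip (ENSMUSG00000038175, chromosome 13 from 45389742 to 45412022) measured 46.2, 63.4, 46.3, 42.4, and 36.9 CPM in vehicle mice and 42.3, 36.6, 44.1, 44.9, and 49.2 CPM in cisplatin mice, which overlapped and were not called (log2 fold change -0.11, adjusted p = 0.525). Co-treated mice had 67.8, 78.6, and 94.9 CPM (lowest, median, highest), above all vehicle and cisplatin mice (log2 fold change 0.86 against cisplatin, SE 0.15, adjusted p = 4.08e-05). KW6002 mice ranged from 39.1 to 80.1 CPM with a median of 60.1, and their highest 3 values came from mice of the 300s. The interaction for Mylip was 0.54 (SE 0.21, adjusted p = 0.0420) and lost its call when any one of 14 libraries was left out (adjusted p 0.0512 to 0.1001). It was called within the 500s (log2 0.63, adjusted p = 0.00952).

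Apoe (ENSMUSG00000002985, chromosome 7 from 19696109 to 19699188) was the most abundant of the 33 genes per kilobase of exon, at 201 ± 50.8 CPM per kb in vehicle kidneys (SD, n = 5). It measured 504, 563, 315, 327, and 441 CPM in vehicle mice and 389, 365, 399, 369, and 671 CPM in cisplatin mice. Co-treated mice had 332, 411, and 546 CPM (lowest, median, highest). The groups overlapped, and the adjusted p was 0.906 with cisplatin and 0.897 with co-treatment. The 95% confidence interval of its log2 fold change with cisplatin ran from -0.39 to 0.45. Apoe is also a macrophage product, and the summed macrophage markers ranged from 184 to 445 CPM in vehicle mice, with the 2 highest values in the 2 vehicle mice highest for Apoe, and from 236 to 334 CPM in cisplatin mice, with the highest value in cisplatin replicate 5. Single macrophage markers went both ways from vehicle to cisplatin, with Cd68 at means of 18.5 and 59.1 CPM and Csf1r at 82.1 and 35.0 CPM. The part of macrophages in the Apoe level was not tested. Abcg1, an exporter to high-density lipoprotein, was at 8.74 ± 1.06, 9.57 ± 0.42, and 8.77 ± 1.33 CPM with vehicle, cisplatin, and co-treatment and was not called in either comparison (adjusted p = 0.473 and 0.486).

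**Figure D3:**
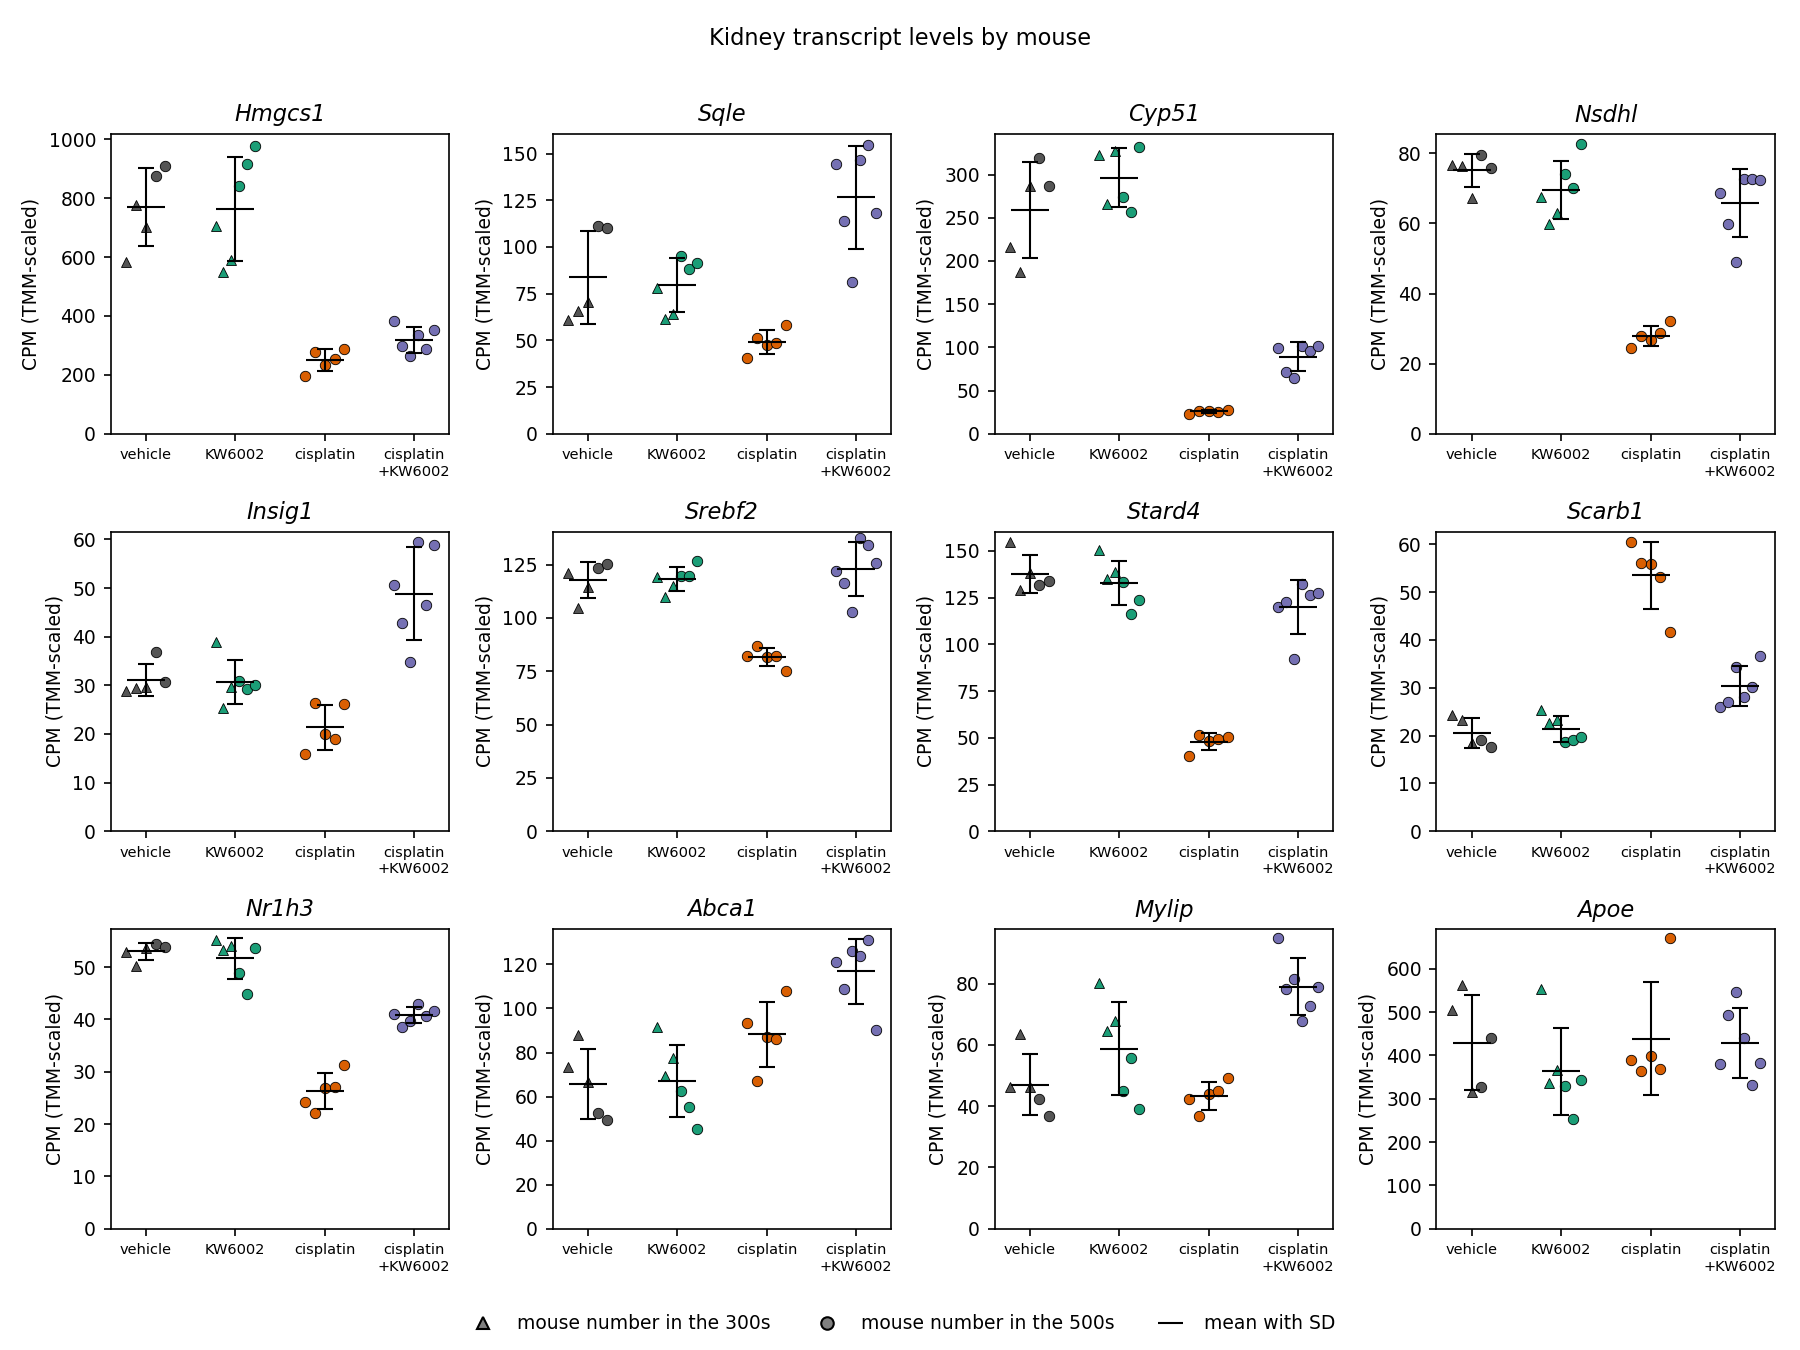
CPM (y axis, from 0) of 12 of the genes in each of the 22 mice by group, with triangles for mice numbered in the 300s, circles for the 500s, and black marks for mean and SD. Cisplatin mice lay below all others for Sqle, Cyp51, Nsdhl, Srebf2, Stard4, and Nr1h3, above all others for Scarb1, and among the others for Abca1 and Apoe.

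Synthesis genes, which SREBP2 drives, were then compared with the LXR targets. Over the 19 synthesis genes, 13 were lower and 2 were higher with cisplatin (median log2 fold change -0.77), and 16 were higher and 1 was lower with co-treatment (median 0.69). For the 4 LXR targets the counts were 0 lower and 1 higher with cisplatin (median 0.08) and 0 lower and 2 higher with co-treatment (median 0.19). Srebf1, a target of both SREBP and LXR, is in neither list. It was called lower with cisplatin, a call lost within the 500s, and higher with co-treatment. With cisplatin 68.4% of synthesis genes and 0% of the 4 LXR targets were lower, next to 35.9% of all tested genes, and 10.5% and 25% were higher, next to 34.6%. With co-treatment 84.2% and 50% were higher, next to 28.6%, and 5.26% and 0% were lower, next to 27.2%. The LXR median with cisplatin was -0.03 without cisplatin replicate 5, so over all mice its sign changed when that mouse was left out. It was 0.16 among the mice of the 500s, 0.29 with the label series as a covariate, and 0.29 with scaling by library size only. With co-treatment the LXR median ran from 0.11 to 0.33 when 1 library was left out and was 0.38 with the fat markers as a covariate. The synthesis medians ran from -0.86 to -0.70 and from 0.64 to 0.76 when 1 library was left out. With cisplatin the synthesis median was -0.98 among the mice of the 500s and -0.99 with the label series as a covariate. It was -0.55 with scaling by library size only. With co-treatment the synthesis median was 0.80 with the fat markers as a covariate. The interaction was called for 15 synthesis genes with the higher KW6002 effect under cisplatin and for 1 with the lower one (78.9% and 5.26%). It was called for 1 of the 4 LXR targets, Mylip, with the higher effect (25%). Among all tested genes the shares were 22.8% and 19.9%. Abca1 was thus called in the direction opposite to most synthesis genes with cisplatin, and Abca1 and Mylip in the same direction as most synthesis genes with co-treatment. With 4 genes in one list and 19 in the other, these counts describe the lists and carry no test of their own.

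The mean log2 CPM of the synthesis genes was 5.09 to 5.24 in vehicle mice, 5.01 to 5.30 in KW6002 mice, 4.20 to 4.43 in cisplatin mice, and 4.79 to 5.24 in co-treated mice. No cisplatin mouse reached any other mouse, and co-treated replicate 3 was the lowest of its group. The mean log2 CPM of the LXR targets was 5.67 to 6.11, 5.60 to 6.47, 5.74 to 6.28, and 6.11 to 6.41 in the same order of groups. In vehicle and KW6002 mice this mean followed the label series, at 5.60 to 5.68 in the 5 mice of the 500s and 5.81 to 6.47 in the 6 mice of the 300s. Within the 500s, each cisplatin and co-treated mouse was above each vehicle and KW6002 mouse for the LXR targets, which the pooled ranges do not show. Co-treated kidneys had synthesis means near those of vehicle kidneys while their summed proximal tubule markers were at 8706 to 12677 CPM against 19638 to 21326. Single markers ran from Slc7a13, at a mean of 49.9 CPM against 864 with vehicle, to Aqp1, at 1450 against 1353. The synthesis mean likewise averages genes from 34.4% (Cyp51) to 195% (Fdps) of the vehicle mean. How these levels relate was not tested.

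**Figure D4:**
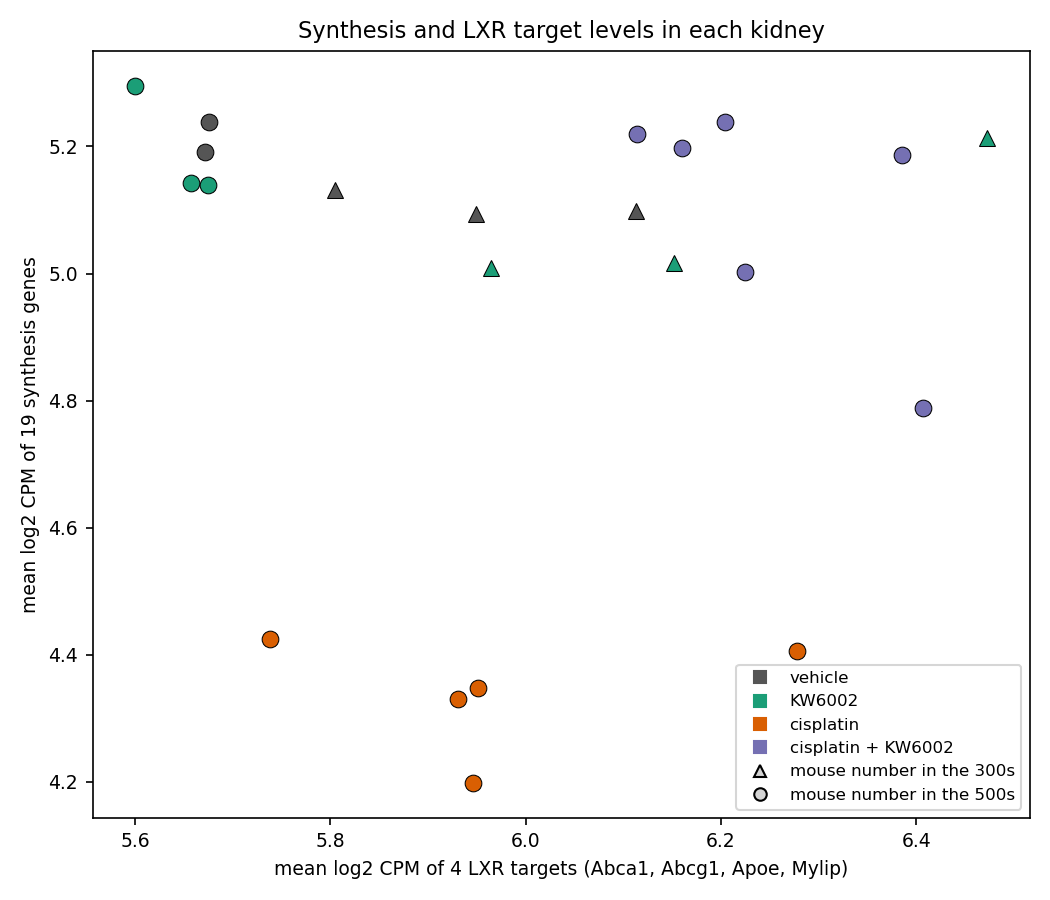
Mean log2 CPM of 4 LXR targets (x axis) and of 19 synthesis genes (y axis) in each mouse, colored by group, with triangles for the 300s and circles for the 500s. The 5 cisplatin mice lie below 4.5 on the y axis, apart from the other 17, and the mice of the 300s lie to the right of the vehicle and KW6002 mice of the 500s.

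KW6002 on its own left the 33 genes without a called change. Against vehicle, 0 genes were higher and 0 were lower with edgeR, against 0.0175% of all tested genes higher (3 genes) and 0% lower. DESeq2 also called 0 of the 33, and 3 of them, against 11.3% of all tested genes, had an unadjusted p below 0.05. The smallest adjusted p was 0.360, for Pmvk (log2 fold change -0.17, SE 0.07), and the largest estimate was 0.32 for Mylip (SE 0.15, adjusted p = 0.417). The log2 fold changes ran from -0.24 to 0.32 with a median of 0.01. For Cyp51 the 95% confidence interval was -0.08 to 0.46, so a change of the size seen with cisplatin lies outside it.

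Levels in KW6002 mice overlapped those in vehicle mice for each of the genes described by mouse above. Among synthesis genes the lowest, median, and highest of the 6 KW6002 mice were 62.8, 64.2, and 85.3 CPM for Acat2. They were 2.04, 2.97, and 4.18 CPM for Idi1 and 1.30, 1.82, and 2.30 CPM for Fdps. Further down the route they were 61.6, 83.1, and 95.3 CPM for Sqle and 59.7, 68.8, and 82.6 CPM for Nsdhl, and all of these Sqle levels were above the highest cisplatin mouse. For the regulators the same 3 values were 110.0, 119, and 127 CPM for Srebf2. Those of Insig1 were 25.3, 29.9, and 39.0 CPM, and those of Srebf1 were 54.8, 63.2, and 98.6 CPM. In transport, Stard4 had 116, 134, and 150.4 CPM, and Scarb1 had 18.6, 21.2, and 25.3 CPM, below all cisplatin mice. In the LXR group, Nr1h3 had 44.9, 53.5, and 55.1 CPM. Abca1 had 45.5, 66.1, and 91.4 CPM, and Apoe had 252, 340.1, and 552 CPM, with the highest Abca1 and Apoe levels in KW6002 replicate 1.

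Co-treated kidneys were also compared with vehicle kidneys, to show where they ended. Of the 33 genes, 17 were higher and 9 were lower than vehicle, against 29.8% and 29.9% of all tested genes. Among the synthesis genes 9 were higher and 7 were lower, with a median log2 fold change of 0.07, so levels ended on both sides of vehicle. The genes that ended lowest were Cyp51 (-1.54), Hmgcs1 (-1.27), Idi1 (-0.79), Ebp (-0.73), Sc5d (-0.73), Mvd (-0.50), and Dhcr7 (-0.45), all on the log2 scale. Those that ended highest were Fdps (0.96), Msmo1 (0.84), Hsd17b7 (0.80), Lss (0.68), Sqle (0.60), Pmvk (0.53), Mvk (0.43), and Fdft1 (0.41). Sqle was not called in this comparison within the 500s (log2 fold change 0.19, adjusted p = 0.371), where the 2 vehicle mice had the higher values, and the call for Mvk was lost there too (log2 fold change 0.39, adjusted p = 0.0541). The call for Idi1 was lost with the fat markers as a covariate (log2 fold change -0.58, adjusted p = 0.0514). Ggps1 was also higher (0.24), and Acat2, Nsdhl, and Tm7sf2 were not called. Within the 500s Acat2 was called higher (log2 fold change 0.35, adjusted p = 0.00729), as it was with the label series as a covariate (0.25, adjusted p = 0.0390), a fit that also called Nsdhl lower (-0.30, adjusted p = 0.0181).

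Outside synthesis, the regulators Insig1 (0.65), Srebf1 (0.33), and Scap (0.33) were above vehicle, and Srebf2 was not called (0.06, adjusted p = 0.406). The Srebf1 call had an adjusted p of 0.0471 and was lost without any one of 14 libraries (adjusted p up to 0.140), but held within the 500s (log2 fold change 0.64, adjusted p = 0.000606). Scarb1 (0.57) and Soat1 (0.39) were also above vehicle, and Npc1 was not called (0.11, adjusted p = 0.123, but 0.20 and 0.0168 with the fat markers as a covariate). Stard4 was just below vehicle (-0.19, adjusted p = 0.0480), a call also lost without any one of 14 libraries (adjusted p up to 0.150). The Stard4 call was lost in 8 other settings too (adjusted p 0.0539 to 0.718). Among them were DESeq2 and the mice of the 500s alone (log2 fold change -0.14, adjusted p = 0.289). Abca1 (0.83), Mylip (0.75), and Nr1h2 (0.26) were above vehicle, Nr1h3 was below it (-0.38), and Abcg1 and Apoe were not called. Within the 500s the values were 1.201 for Abca1 and 0.99 for Mylip.

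Other genes of sterol handling were counted in the same fit. Of 26 other tested genes of sterol handling (28 listed), 9 were higher and 10 were lower with cisplatin (median log2 fold change -0.03), and 9 were higher and 9 were lower with co-treatment (median 0.04). These are 34.6% higher and 38.5% lower with cisplatin, next to 34.6% and 35.9% of all tested genes, and 34.6% in each direction with co-treatment, next to 28.6% and 27.2%. Ch25h, which makes the LXR ligand 25-hydroxycholesterol, rose with cisplatin (log2 fold change 3.11, SE 0.30, adjusted p = 3.23e-09) and was lower with co-treatment (-1.04, adjusted p = 0.00102). Cyp7b1, which breaks down oxysterols, fell with cisplatin (-2.86, SE 0.29, adjusted p = 6.71e-09) and was higher with co-treatment (0.92, adjusted p = 0.00561). Lrp1, an endocytic receptor for apolipoprotein E, rose with cisplatin (1.80, SE 0.16, adjusted p = 1.16e-09) and was lower with co-treatment (-1.19, adjusted p = 6.92e-07). These 3 genes were picked from the list for their size after their values were seen. With KW6002 alone 0 of the 26 genes were called with edgeR, and 4 had an unadjusted p below 0.05, next to 11.3% of all tested genes.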

How the data were processed

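Whole kidneys of 22 male mice were sequenced from poly-A RNA (TruSeq Stranded mRNA, single reads of 50 bases). The authors deposited raw counts per gene, made from uniquely aligned reads on mm10, and the submitters' processing notes name bcl2fastq 2.17.1.14, STAR, and HTSeq 0.6.1p1. Whether strand was used in counting is not given in the sources used here. The 66 unnamed columns of the count table were empty and were not used. Symbols, positions, and exon lengths came from GENCODE M21, and promoter windows from RefSeq (GRCm38.p6).

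Groups came from the sample labels, and the 300s and 500s are the numbers in their descriptions. Counts were fitted in edgeR 4.0.16 (limma 3.58.1, R 4.3.3) with TMM scaling, filterByExpr (minimum count 10), and 1 mean per group over all 22 libraries. The filter kept 17131 genes with 99.95% of counts. The biological coefficient of variation was 0.129. CPM used TMM library sizes. Steps were tested on simulated data. The members and lists were chosen with earlier results of these data known. Values in each mouse were given, within each role, for the 2 genes highest in mean CPM and the 2 with the largest change, Abca1 was added for the comparison of synthesis with efflux after its values were seen, and all others are given by group. Replicates are separate mice. Alternatives were DESeq2 1.42.0, other scalings and filters, covariates, subsets of mice, a stricter call rule, and leaving out each library. For counting precision, Idi1, the lowest gene, had 22 to 33 counts per cisplatin library. A few genes of the pathway are not reported here.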

Additional observations from a re-analysis of the deposited data

Results flagged for a closer look

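Single mice stood apart within their group for 9 of the 132 gene and group combinations tested with Dixon's gap ratio, against 6.6 that chance gives at 1 in 20. KW6002 replicate 1 was the highest of its group for Acat2 (85.3 CPM), Srebf1 (98.6 CPM), and Soat1 (39.6 CPM). Its macrophage and fat markers summed to 503 and 404 CPM, the highest of the 6 KW6002 mice, and the part of such cells in these levels was not tested. KW6002 replicate 6 was the highest for Dhcr7 (28.0 CPM). Among co-treated mice, replicate 3 had the lowest level of Pmvk (25.96 CPM) and Stard4 (92.0 CPM). Cisplatin replicate 1 was the lowest for Stard4 (40.3 CPM) and cisplatin replicate 5 the highest for Apoe (671 CPM), with the highest macrophage markers of the cisplatin mice at 334 CPM. Vehicle replicate 4 was the highest for Insig1 (36.9 CPM).

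The effect of KW6002 differed between mice with and without cisplatin for 24 genes by the interaction in edgeR, given here as the log2 effect with cisplatin minus the effect without. In the mevalonate part it was 1.27 for Mvk, 0.58 for Pmvk, 0.77 for Mvd, 1.53 for Idi1, 1.90 for Fdps, and -0.72 for Acat2. From squalene to cholesterol it was 0.83 for Fdft1, 1.43 for Sqle, 1.24 for Lss, 1.59 for Cyp51, 0.86 for Msmo1, 1.35 for Nsdhl, 0.46 for Hsd17b7, 0.40 for Ebp, 0.65 for Sc5d, and 0.61 for Dhcr7. Among the regulators it was 0.59 for Srebf2, 0.68 for Srebf1, and 1.21 for Insig1. In transport and storage it was 1.37 for Stard4, -0.38 for Npc1, and -0.88 for Scarb1, and in the LXR group 0.67 for Nr1h3 and 0.54 for Mylip. The call for Hsd17b7 was lost without vehicle replicate 4 (adjusted p = 0.0553), within the 500s (adjusted p = 0.0709), and with scaling by library size only (adjusted p = 0.0581), and that for Abcg1 was gained without KW6002 replicate 4 (adjusted p = 0.0403).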

How the results depend on the processing

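The number of the 33 genes called was 26 for cisplatin against vehicle, 26 for co-treatment against cisplatin, 0 for KW6002 against vehicle, 26 for co-treatment against vehicle, and 24 for the interaction. It moved by over 1.5-fold only under the stricter rule that asks for an adjusted p under 0.01 together with a log2 change past 1 in size, which gave 11, 9, 0, 2, and 9, since many changes were smaller than that. Leaving out 1 library gave 24 to 26, 24 to 27, 0, 24 to 26, and 23 to 24. With the replicate block the counts were 26, 27, 0, 26, and 24. Deviations of same-numbered mice from their group means had a median correlation of 0.01 (31 pairs, -0.15 to 0.35, 7 over 0.1). The highest was between vehicle and KW6002 replicate 1. Mice of different numbers were not compared in this way, so this does not settle whether the numbers pair the mice. DESeq2 gave 26, 26, 0, 25, and 24. Among the mice of the 500s the counts were 23, 26, 0, 24, and 23, with the label series as a covariate 24, 26, 0, 26, and 25, and for KW6002 among the mice of the 300s, an alternative chosen after seeing the data, 0. Scaling by library size only moved the median of all genes by 0.20 (log2) for cisplatin against vehicle and gave 27 calls there, 11 higher and 16 lower. Of 165 results for single genes, 142 kept their side of the threshold in every setting, 13 lost a call in at least 1 setting, 10 gained one, and 0 reversed while called. The interaction was not refitted with only the groups compared, since it uses them all. Whole kidneys limit what these levels say about any cell type, and for Idi1 and Fdps the few counts limit precision.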

Other observations

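Of 16 tested fatty acid genes that are targets of SREBP1 and LXR, 11 were lower and 1 was higher with cisplatin (median log2 fold change -1.13), and 10 were higher and 1 was lower with co-treatment (median 0.58). Among all tested genes 35.9% were lower and 34.6% higher with cisplatin, and 28.6% were higher and 27.2% lower with co-treatment. Fads1 and Fads2, desaturase genes of polyunsaturated fatty acids, had log2 fold changes of -0.93 and -1.61 with cisplatin and 0.85 and 1.06 with co-treatment. Fasn and Scd1, fatty acid synthase and desaturase genes with high expression in fat, had -2.76 and -3.25 with cisplatin and 0.99 and 1.27 with co-treatment, and the part of fat in their levels, with fat markers at 137 to 1045 CPM in vehicle mice and 340.2 to 640.2 CPM in cisplatin mice, was not tested. Of 9 genes that use isoprenoids, 5 were lower and 1 was higher with cisplatin (55.6% and 11.1%), and 5 were higher and 1 was lower with co-treatment (55.6% and 11.1%), shares to be read against the same 35.9% lower and 28.6% higher of all tested genes and over few genes. Pdss1, which builds the tail of coenzyme Q, had log2 fold changes of -1.55 and 1.05, and Fntb, the farnesyltransferase subunit gene, had 1.11 and -1.05. Against vehicle, KW6002 alone was called for 0 of 16 fatty acid genes and 0 of 9 isoprenoid genes with edgeR. An unadjusted p below 0.05 was reached by 9 and 2 of them, shares above the 11.3% of all tested genes. Log2 fold changes of the fatty acid genes with KW6002 alone ran from -1.11 to 0.23 (median -0.16, 4 positive). Fat markers were at 60.6 to 404 CPM in KW6002 mice and 137 to 1045 CPM in vehicle mice, and their part was not tested. The genes given with values were picked after these were seen.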
